A study of Mus musculus with 17 samples.

Results

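The transforming growth factor beta (TGF-beta) genes examined here are 9 mouse genes: the ligands Tgfb1, Tgfb2 and Tgfb3, the activin A subunit gene Inhba, the receptors Tgfbr1 and Tgfbr2, the co-receptor Tgfbr3 (betaglycan), the inhibitory gene Smad7 and the induced matrix gene Tgfbi. They were chosen by symbol. All 9 of 9 had a probe set that carried their symbol alone, and each had 1 such probe set, out of 19938 genes measured. TGF-beta ligands are secreted in a latent form and, once released, bring the type II and type I receptors together, so that the type I receptor phosphorylates Smad2 and Smad3. These join Smad4 in the nucleus. Activins use other receptors and the same Smads. In the mammary gland TGF-beta restrains epithelial growth, and in carcinomas it is known for mesenchymal transition, matrix production and immune restraint.

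RNA of 12 mammary tumours and 5 normal mammary tissue samples was measured with 17 Affymetrix Mouse Gene 1.0 ST arrays. All mice were of a mixed strain background, and ages and the deleted exons are not given. The 9 Rb/p53 tumours are labelled as deleted for Rb and p53. In 7 of these, Cre recombinase was driven by the promoter of mouse mammary tumour virus (MMTV-Cre), which is active in mammary epithelium and in some other tissues, and in 2 it came from an adenovirus with a CMV promoter (Ad-Cre). By their labels 5 MMTV-Cre and 2 Ad-Cre tumours were transplants, while MMTV-Cre replicate 1 is labelled nulliparous and replicate 2 parous, with no transplant named. In the 3 p53 tumours, also driven by MMTV-Cre, p53 is labelled as deleted. Normal tissue was taken from Rb/p53 mice, with no statement on Cre. The tumours were independent, per the labels, and nothing says so for the normal samples, so p-values reflect only sample-to-sample spread, which may be technical.

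Values are log2 levels, in which 1 unit is a doubling of signal. The number of arrays limits the precision. Rb1, the targeted gene with a probe set of its own, fell in Rb/p53 tumours against normal tissue (-1.67 ± 0.16 SE, limma adjusted p = 7.74e-07, n = 9 and 5), with ranges of 9.29 to 9.92 and 10.93 to 11.50 that did not overlap. It was lower in p53 tumours too (9.93, 10.999 and 10.27 for replicates 1 to 3; -0.81 ± 0.21, adjusted p = 0.0124), and Trp53 was not analysed here. The labels of p53 replicate 3 disagree, since by its title alone it would be an Rb/p53 tumour, and it was grouped by the other labels, which give p53. The p53 replicate 2 array stood apart: over all probe sets it correlated with the other arrays at r = 0.888 to 0.915, whereas all other pairs reached 0.929 or more. Its log2 values were also less spread, with an interquartile range of 2.39 against 2.91 to 3.18 on the 16 other arrays. Whether this is technical was not tested. Results that rest on this array are given with and without it. Luminal markers of mammary epithelium were present in all groups and lower in tumours. The mean log2 level of 8 of 8 was 11.43 to 11.58 in normal tissue, 8.35 to 10.34 in Rb/p53 tumours and 8.19 to 9.74 in p53 tumours. For 7 of 7 basal and myoepithelial markers the mean was 9.95 to 10.29 in normal tissue. It was 7.58 to 8.35 in Rb/p53 and 7.69 to 8.58 in p53 tumours, around the median probe set of an array (7.74 to 7.85). The mean of 7 of 8 adipocyte markers was 12.55 to 13.06 in normal tissue and 7.42 to 8.68 in Rb/p53 tumours. In such bulk samples fewer cells of a type and less RNA per cell cannot be told apart.

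The 4 genes that rose in both tumour genotypes against normal tissue were Tgfb1, Inhba, Tgfbr1 and Tgfbi, and their promoters are printed here because these genes moved the same way. Each is 250 bases before to 50 bases after a gene start, read 5′ to 3′ on the gene's strand, from RefSeq on build GRCm38.p6. Capitals mark CAGAC or its complement GTCTG, the core of the element that Smad3 and Smad4 bind.
Tgfb1 chr7:25686752-25687051, plus strand: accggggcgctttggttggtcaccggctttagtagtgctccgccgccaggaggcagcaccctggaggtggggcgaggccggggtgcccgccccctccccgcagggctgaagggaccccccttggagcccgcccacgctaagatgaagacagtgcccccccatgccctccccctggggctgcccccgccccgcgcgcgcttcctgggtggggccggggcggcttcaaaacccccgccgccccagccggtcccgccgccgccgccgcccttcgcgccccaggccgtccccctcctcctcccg
Inhba chr13:16011601-16011900, plus strand: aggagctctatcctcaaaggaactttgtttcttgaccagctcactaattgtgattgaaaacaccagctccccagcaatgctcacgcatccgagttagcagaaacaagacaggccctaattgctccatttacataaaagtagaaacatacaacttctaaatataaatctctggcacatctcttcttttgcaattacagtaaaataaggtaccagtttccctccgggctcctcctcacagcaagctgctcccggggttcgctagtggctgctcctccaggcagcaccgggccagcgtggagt
Tgfbr1 chr4:47352972-47353271, plus strand: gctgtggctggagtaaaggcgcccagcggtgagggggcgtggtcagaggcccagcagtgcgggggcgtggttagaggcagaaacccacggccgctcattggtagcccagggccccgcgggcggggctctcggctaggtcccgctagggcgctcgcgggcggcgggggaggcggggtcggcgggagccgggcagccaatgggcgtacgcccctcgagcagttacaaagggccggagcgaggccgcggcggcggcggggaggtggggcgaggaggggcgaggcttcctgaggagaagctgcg
Tgfbi chr13:56609336-56609635, plus strand: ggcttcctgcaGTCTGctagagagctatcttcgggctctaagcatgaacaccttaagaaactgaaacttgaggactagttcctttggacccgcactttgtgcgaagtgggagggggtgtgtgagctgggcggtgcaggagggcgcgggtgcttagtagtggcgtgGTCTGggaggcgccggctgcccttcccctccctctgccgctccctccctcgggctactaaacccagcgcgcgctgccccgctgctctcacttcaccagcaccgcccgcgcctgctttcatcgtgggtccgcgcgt
The Tgfbi window held 2 CAGAC matches, both strands searched, and the other 3 printed windows held none. Tgfbr1 has another start in the table, at chr4:47385966-47386265, plus strand, not printed, whose window held 1 CAGAC match and had a GC content of 52.0%. CAGAC occurs in 49.6% of all 32851 promoter windows of this length, so a match is common. The AP-1 motif TGANTCA, found in 7.81% of windows, the cyclic AMP response element TGACGTCA (1.79%) and the TEAD motif GGAATG (14.7%) were also searched on both strands, and these letters were not in any of these 5 windows. GC content was 77.0% for Tgfb1, 74.7% for the printed Tgfbr1 window, 63.3% for Tgfbi and 47.7% for Inhba, against a median of 52.7% over all windows. Of the 9 genes 6 were matched in the promoter table.

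Among the ligands, Tgfb1 was higher in every tumour than in every normal sample, Inhba rose by far more, and Tgfb2 and Tgfb3 lay lower in p53 tumours. Tgfb1 encodes the ligand that immune and stromal cells secrete most widely. It read 10.29, 9.89, 10.08, 10.29 and 10.13 in the 5 normal samples, 10.996, 10.95 and 11.45 in the p53 tumours, and 10.38 and 11.30 in the Ad-Cre tumours. In the 7 MMTV-Cre tumours the lowest, median and highest values were 10.60, 10.79 and 11.07. The tumour and normal groups thus did not overlap, and the 2 Ad-Cre tumours lay at the bottom and near the top of the tumour range. The log2 fold was 0.67 ± 0.13 in Rb/p53 tumours (adjusted p = 0.00124, n = 9 and 5) and 1.00 ± 0.18 in p53 tumours (adjusted p = 6.68e-04, n = 3 and 5), by limma with Benjamini-Hochberg adjustment over all genes.

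Inhba encodes the beta A chain whose dimer is activin A. Its normal tissue values were 7.49, 7.72, 7.53, 7.90 and 8.28, close to the median probe set of an array (7.74 to 7.85). The p53 tumours read 11.60, 9.45 and 10.78 for replicates 1 to 3, the Ad-Cre tumours 11.43 and 11.93, and the MMTV-Cre tumours 10.82 to 11.92 with a median of 11.42. Every tumour lay above every normal sample, and p53 replicate 2 was the lowest tumour. The log2 fold was 3.64 ± 0.28 in Rb/p53 tumours (adjusted p = 5.21e-08), rank 7 of the 19938 genes by size of rise. In p53 tumours it was 2.83 ± 0.37 (adjusted p = 3.93e-05), rank 29, and 3.41 without p53 replicate 2.

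Tgfb2 and Tgfb3 encode the remaining ligands, which act in development and in the involuting gland. Tgfb2 read 9.24 to 10.57 in normal tissue, 8.44, 8.39 and 9.20 in p53 tumours, 8.90 and 8.94 in Ad-Cre tumours and 7.99 to 10.04 (median 9.02) in MMTV-Cre tumours. All 3 p53 tumours and 6 of 9 Rb/p53 tumours lay below every normal sample. Neither difference passed the threshold: the log2 fold was -0.74 ± 0.31 in Rb/p53 tumours (adjusted p = 0.0835) and -1.16 ± 0.40 in p53 tumours (adjusted p = 0.0502). The first passed without MMTV-Cre replicate 1 (limma adjusted p = 0.0374), and its adjusted p reached 0.237 with another single array left out. The second passed without p53 replicate 3 (adjusted p = 0.0306) or normal replicate 1 (adjusted p = 0.0402). It also passed with a filter on low genes (adjusted p = 0.0452) and when the fit held p53 and normal arrays alone (adjusted p = 0.0476). Its adjusted p was 0.147 without p53 replicate 2 (fold -1.01), 0.124 without p53 replicate 1 and 0.105 with array weights.

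Tgfb3 read 11.77, 11.14, 10.95, 11.37 and 11.01 in normal tissue and 10.39, 10.25 and 10.33 in p53 tumours, which lay together below all of these. It fell in p53 tumours by 0.92 ± 0.32 (adjusted p = 0.0482), a call that was lost when any of the 8 arrays compared was left out (adjusted p 0.0542 to 0.109), and with array weights, quantile normalisation or cyclic loess (adjusted p = 0.0815, 0.0561 and 0.0528). In the Rb/p53 tumours Tgfb3 spread from 10.32 to 12.19, on both sides of the normal range, with 10.69 and 10.65 in the Ad-Cre tumours. Its log2 fold there was -0.30 ± 0.24 (adjusted p = 0.413).

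**Figure D1:**
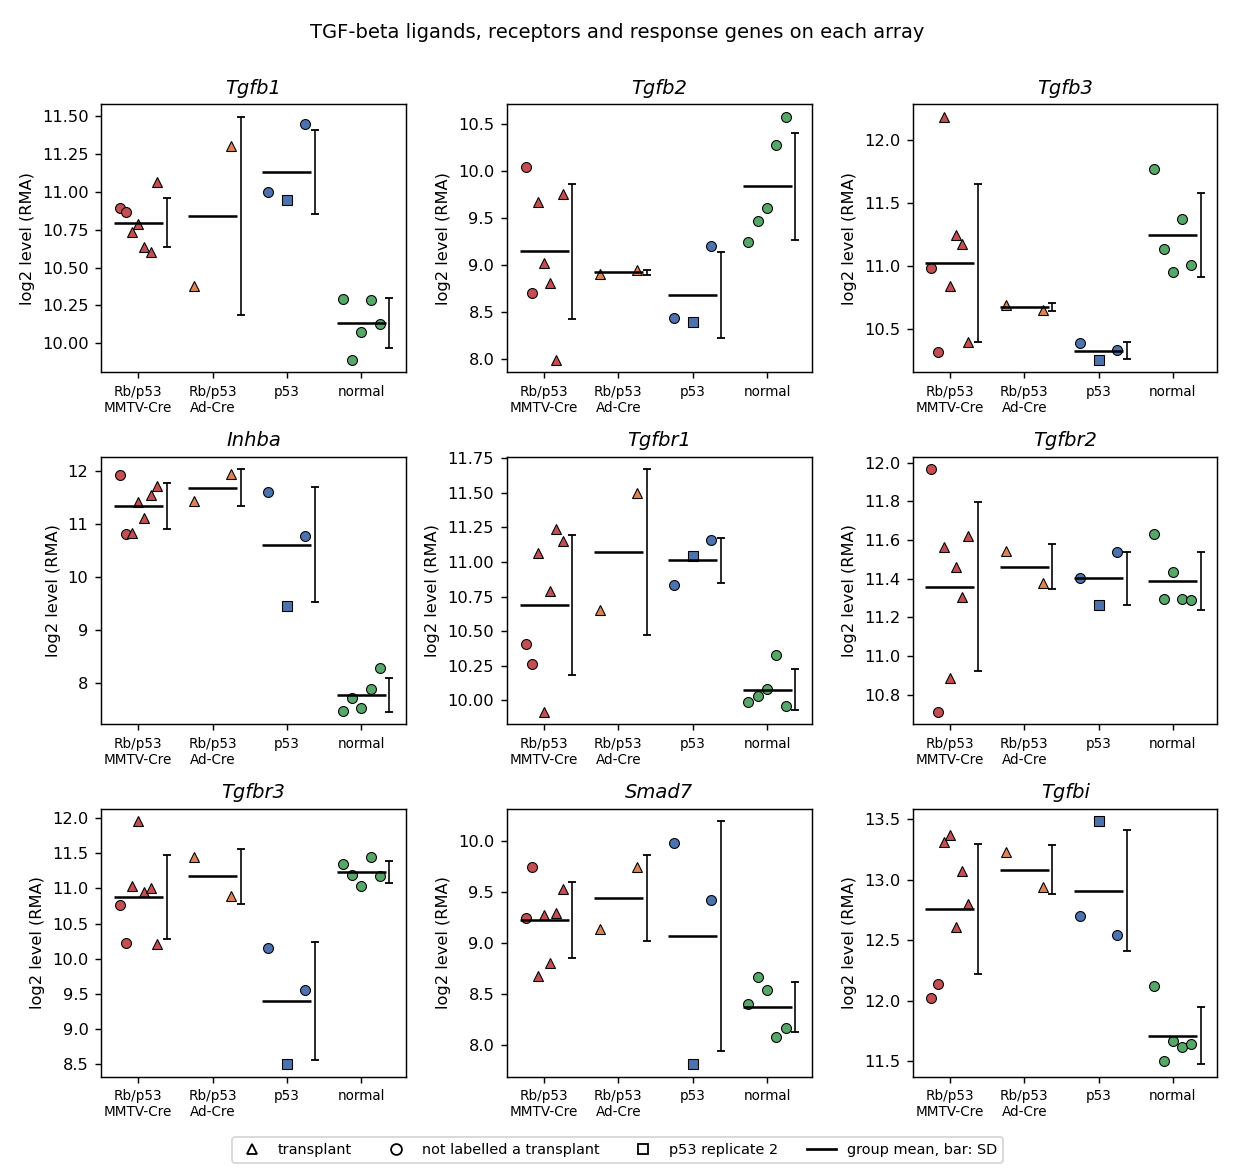
Log2 level (RMA, vertical axes) of the 9 genes on each of the 17 arrays, by group; triangles are transplants, circles other samples, the square is p53 replicate 2, horizontal lines are group means and bars the SD. Inhba and Tgfb1 show no overlap between tumours and normal tissue, Tgfbr2 overlaps throughout, and Tgfbr3 is lowest in the p53 tumours.

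The receptors divided: the type I receptor gene rose in both genotypes, the type II receptor gene did not pass the test in either, and the co-receptor gene fell in p53 tumours. Tgfbr1, the type I receptor kinase, read 9.99, 10.03, 10.08, 10.33 and 9.96 in normal tissue, 10.84, 11.04 and 11.16 in p53 tumours and 10.65 and 11.50 in Ad-Cre tumours. The MMTV-Cre tumours spread from 9.92 to 11.24 with a median of 10.79. Of the 9 Rb/p53 tumours 7 lay above all normal samples and 1 below them. The log2 fold was 0.70 ± 0.21 in Rb/p53 tumours (adjusted p = 0.0199) and 0.93 ± 0.28 in p53 tumours (adjusted p = 0.0242). Under cyclic loess normalisation the call in Rb/p53 tumours was lost (0.55, adjusted p = 0.0691). It was also lost with the 2 non-transplanted Rb/p53 tumours alone, which averaged 10.33 (fold 0.26). The call in p53 tumours was lost without p53 replicate 2 (0.92, adjusted p = 0.0558) or replicate 3 (0.86, adjusted p = 0.0589).

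Tgfbr2, the type II receptor that binds the ligand first, averaged 11.39 ± 0.15 (SD, n = 5) in normal tissue. The mean was 11.38 ± 0.38 (SD, n = 9) for Rb/p53 tumours and 11.40 ± 0.14 (SD, n = 3) for p53 tumours, and the ranges overlapped. The log2 fold was -0.01 in Rb/p53 tumours, with a 95% confidence interval of -0.35 to 0.34 (adjusted p = 0.986), and 0.01 in p53 tumours (-0.44 to 0.46, adjusted p = 0.973). MMTV-Cre tumours held both the lowest and the highest reading of all arrays, 10.71 in the parous and 11.97 in the nulliparous mouse.

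Tgfbr3, the co-receptor that presents ligands to the type II receptor and binds TGF-beta 2 in particular, read 10.15, 8.50 and 9.55 in p53 tumours. Normal tissue read 11.34, 11.18, 11.04, 11.44 and 11.18, the Ad-Cre tumours 11.45 and 10.90, and the MMTV-Cre tumours 10.20 to 11.95 (median 10.94). Every p53 tumour lay below every other sample, and replicate 2 was the lowest. In p53 tumours Tgfbr3 fell by 1.84 ± 0.36 (adjusted p = 0.00149), and by 1.39 without replicate 2 (adjusted p = 0.0102). In Rb/p53 tumours the log2 fold was -0.29 ± 0.27 (adjusted p = 0.500), with 7 of 9 tumours below and 2 above the normal range.

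Smad7 and Tgfbi are induced by TGF-beta signalling. Smad7, which blocks the type I receptor, averaged 8.37 ± 0.25 (SD, n = 5) in normal tissue and rose to 9.27 ± 0.37 (SD, n = 9) in Rb/p53 tumours, by 0.90 ± 0.27 (adjusted p = 0.0203). All 9 Rb/p53 tumours (8.68 to 9.74) lay above the normal samples (8.08 to 8.67), although the ranges nearly met. Leaving out normal replicate 4 (0.83, adjusted p = 0.0586) or 5 (0.85, adjusted p = 0.0512) lost the call. In p53 tumours Smad7 read 9.98, 7.81 and 9.42. Replicate 2 was below all normal samples and the others above them. The fold of 0.70 ± 0.36 did not pass (adjusted p = 0.172), and without replicate 2 it was 1.33 (adjusted p = 0.00227).

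Tgfbi, a secreted matrix protein that binds collagens and integrins, was higher in both tumour genotypes. It read 12.12, 11.50, 11.67, 11.62 and 11.64 in normal tissue, 12.70, 13.48 and 12.54 in p53 tumours and 13.23 and 12.94 in Ad-Cre tumours. The MMTV-Cre tumours read 12.02 to 13.37 with a median of 12.80. The log2 fold was 1.12 ± 0.23 in Rb/p53 tumours (adjusted p = 0.00138) and 1.20 ± 0.30 in p53 tumours (adjusted p = 0.00882). Without p53 replicate 2 the latter was 0.91 and missed the threshold (adjusted p = 0.0530).

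In all, 5 of the 9 genes rose in Rb/p53 tumours against normal tissue, 4 missed the threshold and none fell, where 14.2% of all genes were called higher, 13.4% lower and 27.6% in either direction. The median log2 fold was 0.67 over the 9 genes and 0.03 over all genes. In p53 tumours 4 genes rose, 2 fell and 3 did not pass, where 8.34% of all genes were called higher, 12.1% lower and 20.4% in either direction, and the medians were 0.70 and 0.09. Both comparisons share the normal samples. Without p53 replicate 2, where 21.2% of all genes were called, 3 genes rose in p53 tumours (Tgfb1, Inhba and Smad7) and 1 fell (Tgfbr3). With the 2 non-transplanted Rb/p53 tumours alone, 2 of 9 rose (Tgfb1 and Inhba), where 10.1% of all genes were called. Smad7 was not called there although its fold was 1.12, against 0.90 over all 9 tumours. The folds of Tgfbr1 (0.26 against 0.70) and Tgfbi (0.37 against 1.12) were smaller.

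**Figure D2:**
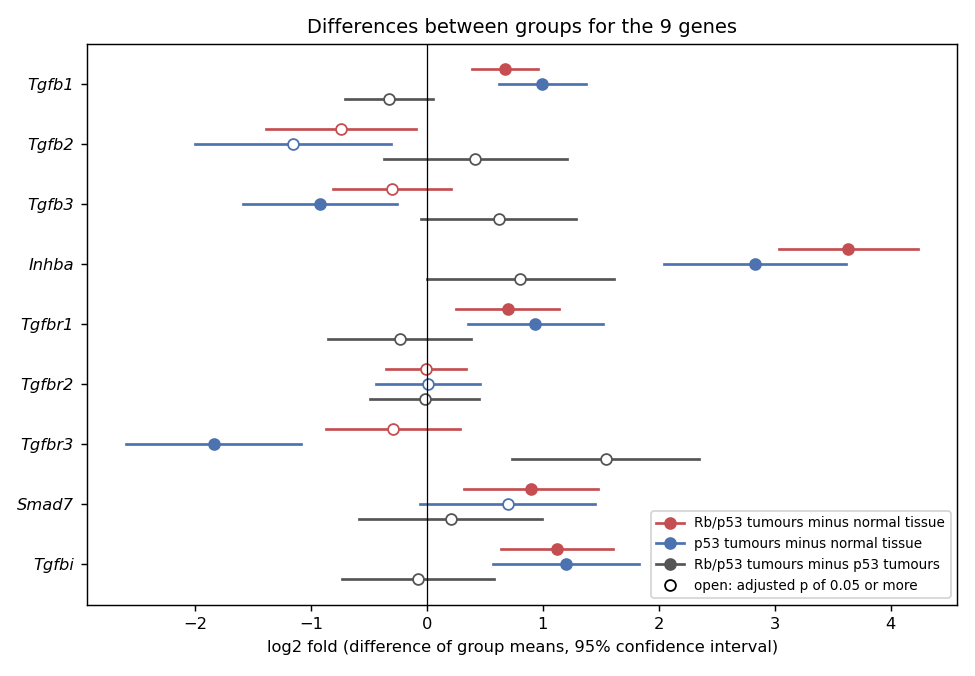
Log2 fold (horizontal axis) with its 95% confidence interval for each gene in 3 comparisons; filled points passed an adjusted p of 0.05 (limma, over 19938 genes), open points did not. Inhba has the largest fold against normal tissue in both genotypes, and no point is filled for Rb/p53 against p53 tumours.

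Rb/p53 tumours were set against p53 tumours to ask what differs when Rb is lost as well. Of the 9 Rb/p53 tumours 7 were transplants and none of the 3 p53 tumours is labelled as one, so genotype and host are largely confounded. By limma on the 12 tumour arrays none of the 9 genes passed, 1 (Tgfbr3) had an unadjusted p below 0.05, and 0.00502% of all genes were called, with 4117 genes at an unadjusted p below 0.05. Tgfbr3 was 1.54 ± 0.37 higher in Rb/p53 tumours (95% confidence interval 0.74 to 2.35, adjusted p = 0.118), rank 78 among all genes by size of rise. The adjusted p was 0.0314 when all 17 arrays entered the fit, and the fold was 1.09 without p53 replicate 2 (adjusted p = 0.466) and 1.10 with the 2 non-transplanted Rb/p53 tumours alone (adjusted p = 0.823). Inhba was 0.81 ± 0.37 higher (adjusted p = 0.242) and 0.23 higher without p53 replicate 2. Tgfb3 was 0.62 ± 0.31 higher (adjusted p = 0.261). The folds of the remaining 6 genes lay between -0.32 for Tgfb1 and 0.42 for Tgfb2. Their intervals were wide, for instance -0.59 to 1.00 for Smad7, so no call here does not show that the genotypes were alike. The count over all genes depended on p53 replicate 3, whose title names the Rb/p53 model. It was 1358 without this array and 2044 with it moved to the Rb/p53 tumours, and none of the 9 genes was called in either.

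Ad-Cre and MMTV-Cre Rb/p53 tumours differ by the labels in how Cre was delivered. None of the 9 genes passed, none had an unadjusted p below 0.05, and 0.00502% of all genes were called higher (412 genes at an unadjusted p below 0.05). The log2 folds ran from -0.35 ± 0.37 for Tgfb3 to 0.38 ± 0.34 for Tgfbr1. Both Ad-Cre tumours are transplants, as are 5 of the 7 MMTV-Cre tumours.

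Within the MMTV-Cre model Tgfbi differed most between hosts. It read 12.02 and 12.14 in the 2 tumours not labelled as transplants and 13.31, 13.37, 12.61, 13.08 and 12.80 in the 5 transplants, without overlap. The log2 fold was 0.95 ± 0.22, with an unadjusted p of 0.00337 and an adjusted p of 0.557 by limma, so it did not pass. None of the 9 genes passed in this comparison, where 0.0251% of all genes were called, 0.00502% higher and 0.0201% lower (1579 genes at an unadjusted p below 0.05). Against normal tissue the fold of Tgfbi was 0.37 when only the 2 tumours not labelled as transplants were used (adjusted p = 0.430).

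By group mean the 4 groups ranked differently from gene to gene. Normal tissue was lowest for Tgfb1, Inhba, Tgfbr1, Smad7 and Tgfbi and highest for Tgfb2, Tgfb3 and Tgfbr3. The p53 tumours were highest for Tgfb1 and lowest for Tgfb2, Tgfb3 and Tgfbr3, and Ad-Cre tumours were highest for Inhba, Tgfbr1, Tgfbr2, Smad7 and Tgfbi. Neighbours without overlapping ranges were MMTV-Cre tumours and normal tissue for Tgfb1, and p53 tumours and normal tissue for Inhba. Ad-Cre and p53 tumours for Tgfb3, and MMTV-Cre and p53 tumours for Tgfbr3, did not overlap either. All other neighbours overlapped. How often neighbours lie apart over all genes was not counted, so these cases are a description only.

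Among the 9 Rb/p53 tumours the genes did not rise and fall as a block. Of 36 pairs 20 had a positive Pearson r, and none passed an exact permutation test after adjustment over the 36 pairs, with 2 at an unadjusted p below 0.05. Tgfb3 and Smad7 were the most opposed pair (r = -0.85, exact permutation p = 0.00173, adjusted p = 0.0623; Spearman's rho = -0.80, exact p = 0.0138, adjusted p = 0.249). Without the 2 tumours with the most extreme Tgfb3 r was -0.70, and within the 7 transplants it was -0.81. Tgfbr3 and Tgfbi were the most alike (r = 0.68, exact p = 0.0408, adjusted p = 0.734; rho = 0.83, exact p = 0.00827, adjusted p = 0.249), with r = 0.77 without the 2 most extreme tumours and 0.70 within the transplants. The order of pairs differed among the 7 transplants, where Inhba with Smad7 had the highest r (0.98, against 0.41 over the 9 tumours) and Tgfb3 with Inhba the lowest (-0.86, against -0.38).

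**Figure D3:**
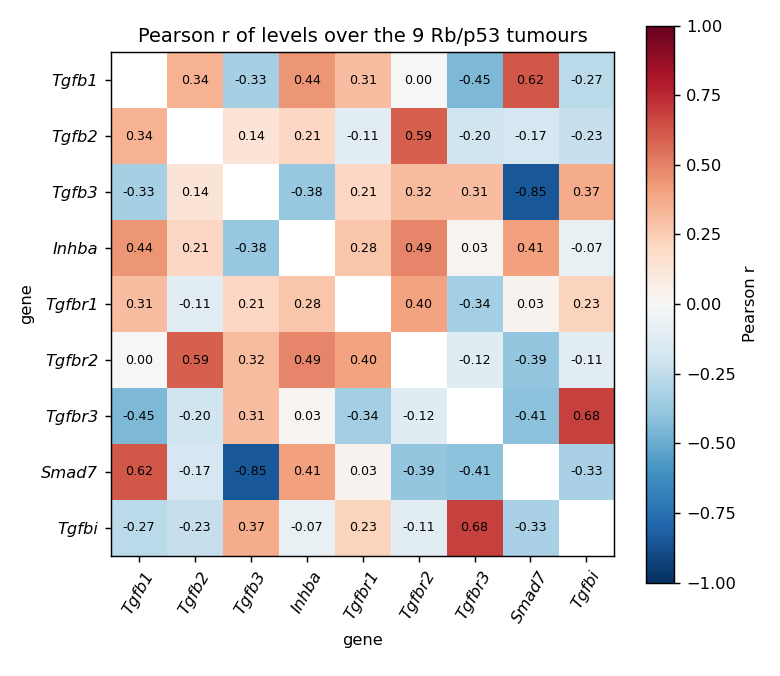
Pearson r between the log2 levels of each pair of genes over the 9 Rb/p53 tumours, on a colour scale from -1 to 1. The values run from -0.85 for Tgfb3 with Smad7 to 0.68 for Tgfbr3 with Tgfbi, and none passed after adjustment.

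Macrophage markers differed between groups beside these genes. The mean level of 7 of 7 macrophage markers was 10.03 to 10.46 in normal tissue, 10.15 to 11.13 in Rb/p53 tumours and 10.79 to 12.55 in p53 tumours, with 12.55 in p53 replicate 2. Of these markers 3 rose and 1 fell in Rb/p53 tumours, where 14.2% of all genes were called higher and 13.4% lower. In p53 tumours 6 rose, where 8.34% of all genes were called higher and 12.1% lower. Without p53 replicate 2, 3 rose and 1 fell, where 2073 of the 19938 genes were called higher and 2160 lower. Over the 9 Rb/p53 tumours Tgfb1 correlated with this mean at r = 0.87 (exact permutation p = 0.00224, adjusted p = 0.0606 over 27 relations of the 9 genes with 3 marker lists) and rho = 0.77 (exact p = 0.0214, adjusted p = 0.289). The r was 0.65 without the 2 tumours with the most extreme marker mean and 0.88 within the 7 transplants. Tgfbr3 ran opposite to the macrophage mean by rank (rho = -0.78, exact permutation p = 0.0172, adjusted p = 0.289; r = -0.66, exact p = 0.0514, adjusted p = 0.614). Its r was -0.69 without the 2 most extreme tumours and -0.77 within the transplants. No relation with the marker lists passed after adjustment. Fibroblast markers, 8 of 8 measured, had a mean of 11.07 to 11.32 in normal tissue, 9.10 to 10.50 in Rb/p53 tumours and 9.47 to 10.26 in p53 tumours. Of them 4 fell in Rb/p53 and 3 in p53 tumours, where 13.4% and 12.1% of all genes were called lower. No macrophage or fibroblast marker was under 6.37, the smallest array-wide 25th percentile, throughout a group. The part of these cell types in the results on the 9 genes was not tested.

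Other genes of the pathway were taken from 6 lists with 79 measured members, chosen for their role. In Rb/p53 tumours 22 of them rose and 9 fell against normal tissue (median log2 fold 0.16), and in p53 tumours 9 rose and 13 fell (median 0.00); without p53 replicate 2 it was 17 and 8. Among all genes 14.2% were called higher and 13.4% lower in Rb/p53 tumours, 8.34% and 12.1% in p53 tumours, and 21.2% in either direction without p53 replicate 2. With the 2 non-transplanted Rb/p53 tumours alone, 12 rose and 7 fell, where 10.1% of all genes were called. The calls lost with these 2 tumours included Ltbp1 (adjusted p = 0.186), Itgav (0.236), Acvr1 (0.232), Acvr2a (0.155), Eng (0.0858), Ldlrad4 (0.141), Smad1 (0.0761), Smad5 (0.214) and Bmp5 (0.0509), all by limma. Of these folds 4 were larger in size than over all 9 tumours. They were Ltbp1 (1.59 against 1.49), Acvr1 (0.73 against 0.69), Smad5 (0.49 against 0.40) and Bmp5 (-0.71 against -0.61). Eng (-0.61 against -0.62) and Ldlrad4 (0.72 against 0.74) hardly moved. Itgav (0.67 against 0.94), Acvr2a (-0.38 against -0.50) and Smad1 (0.63 against 0.74) shrank. A test on 2 tumours is less precise than on 9, so a lost call need not mean a smaller fold. No list member passed between Rb/p53 and p53 tumours. There 16 of the 79 had an unadjusted limma p below 0.05, as did 4117 of all 19938 genes, a similar share.

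Of 11 other ligands of the family 3 fell, none rose and 8 did not pass in Rb/p53 tumours, where 27.6% of all genes were called. In p53 tumours 5 fell and 6 did not pass, where 20.4% of all genes were called. Bmp7, a bone morphogenetic protein, fell by 2.52 ± 0.19 in Rb/p53 tumours (adjusted p = 3.25e-08) and by 2.39 ± 0.25 in p53 tumours (adjusted p = 3.11e-06). Bmp6 fell by 0.79 ± 0.10 and 0.82 ± 0.13, and Bmp5 by 0.61 ± 0.10 and 0.44 ± 0.14. The mean level of Bmp5 in tumours, 6.64 and 6.82, lies near the 25th percentile of probe sets (6.37 to 6.80 by array), so the size of its fall is not exact. Bmp4 (-1.88 ± 0.61) and Inha (-0.80 ± 0.28), the inhibin alpha subunit that pairs with the product of Inhba, were called in p53 tumours, and both calls were lost when any of the 8 arrays was left out. The call on Bmp5 in p53 tumours was lost in 5 of these 8 cases (highest adjusted p = 0.134).

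Of 10 other receptors 1 rose and 3 fell in Rb/p53 tumours and 3 fell in p53 tumours, where 27.6% and 20.4% of all genes were called. Acvr1c, which encodes the nodal and activin receptor ALK7, known from adipocytes, fell from 10.61 ± 0.32 (SD, n = 5) to 6.56 ± 0.20 (SD, n = 9) in Rb/p53 tumours and to 6.74 ± 0.25 (SD, n = 3) in p53 tumours. These tumour levels lie near the 25th percentile of probe sets (6.37 to 6.80 by array), so the size of the fall is not exact. All 7 measured adipocyte markers fell in both genotypes, and their part in the fall of Acvr1c was not tested. Eng, the endothelial co-receptor endoglin, fell by 0.62 ± 0.12 and 0.64 ± 0.16, beside endothelial markers of which 2 of 6 fell in Rb/p53 and 4 of 6 in p53 tumours, or 1 of 6 without p53 replicate 2; their part in the fall of Eng was not tested. The type I receptor gene Acvr1 rose by 0.69 ± 0.20 and the activin type II receptor gene Acvr2a fell by 0.50 ± 0.11 in Rb/p53 tumours. Bmpr1a, a type I receptor for bone morphogenetic proteins, fell by 1.19 ± 0.31 in p53 tumours, by 0.63 without replicate 2, and missed the threshold when only the arrays compared entered the fit (adjusted p = 0.0556).

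A list for TGF-beta latency and release, which also holds the family member Ltbp2, had 3 of 11 genes that rose in Rb/p53 tumours. None fell, where 14.2% of all genes were called higher and 27.6% in either direction. Ltbp1, a latent TGF-beta binding protein, rose by 1.49 ± 0.39 (adjusted p = 0.00892), Ltbp2, a matrix protein of that family, by 1.42 ± 0.28 (adjusted p = 0.00122), and Itgav, the integrin chain shared by receptors that activate the latent complex, by 0.94 ± 0.18 (adjusted p = 8.18e-04). In p53 tumours none rose and 2 fell, where 12.1% of all genes were called lower: Ltbp3 by 1.24 ± 0.30, and Itgb8, an integrin partner of Itgav, by 1.17 ± 0.35, a call lost without p53 replicate 2 (adjusted p = 0.0966) or normal replicate 4 (adjusted p = 0.0501).

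Of 8 genes listed for Smad transduction, which include Zfyve9 and Foxh1 beside the Smads, 2 were called in Rb/p53 tumours. There 27.6% of all genes were called. Smad1 and Smad5, which transduce bone morphogenetic protein signals, rose by 0.74 ± 0.14 and 0.40 ± 0.13. The call on Smad5 did not hold when normal replicate 1, 3 or 4 was left out (adjusted p up to 0.0717) or under cyclic loess (adjusted p = 0.0721). Smad2 (0.24, adjusted p = 0.0837) and Smad3 (0.49, adjusted p = 0.180), the TGF-beta and activin transducers, did not pass and are named after their values were seen. In p53 tumours 1 of 8 was called, where 20.4% of all genes were: Smad4, the shared partner of the other Smads, rose by 0.46 ± 0.14, against a fold of 0.25 without replicate 2 (adjusted p = 0.160), with the call also lost without normal replicate 2 or 3.

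Inhibitors of the pathway included 4 of 15 that rose in Rb/p53 tumours, and 3 that rose and 1 that fell in p53 tumours, where 27.6% and 20.4% of all genes were called. The transcriptional corepressor genes Tgif1 and Skil rose by 1.42 ± 0.14 and 1.37 ± 0.12 in Rb/p53 tumours (adjusted p = 1.11e-06 and 1.29e-07) and by 0.90 ± 0.19 and 1.19 ± 0.15 in p53 tumours. Ldlrad4, which restrains receptor phosphorylation of Smads, rose by 0.74 ± 0.16 and 0.90 ± 0.21. Fstl3, a secreted antagonist that binds activin, rose by 1.33 ± 0.23 in Rb/p53 tumours. These calls were kept when each array compared was left out. Smad6 fell by 0.52 ± 0.17 in p53 tumours, a call lost in 6 of 8 such cases (highest adjusted p = 0.0928).

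Of 24 genes known to respond to TGF-beta, 12 rose and 3 fell in Rb/p53 tumours, with a median log2 fold of 0.54, where 14.2% of all genes were called higher and 13.4% lower and their median was 0.03. Tnc, tenascin C, rose by 3.47 ± 0.50, Timp1, a metalloproteinase inhibitor, by 3.37 ± 0.44, Hmga2, a chromatin protein, by 3.19 ± 0.50, Lox, a collagen cross-linking enzyme, by 1.82 ± 0.52, and Snai1, a repressor of E-cadherin, by 1.82 ± 0.19. The 3 that fell, named after their values were seen, were Angptl4 (-1.005 ± 0.36), Id2 (-0.76 ± 0.19) and Tgm2 (-0.35 ± 0.13). In p53 tumours 5 rose and 2 fell, where 8.34% of all genes were called higher and 12.1% lower. Without replicate 2, 8 rose and 1 fell, where 21.2% of all genes were called. Tnc rose by 4.19 ± 0.66 and Hmga2 and Timp1 by 2.24 ± 0.66 and 1.99 ± 0.58, or by 3.26 and 3.14 without p53 replicate 2. The calls on the last pair were lost without p53 replicate 1 or 3, and that on Timp1 also without normal replicate 4. Snai2 fell by 1.97 ± 0.54 and Angptl4 by 1.39 ± 0.47, both lost without replicate 2 (adjusted p = 0.100 and 0.293), and that on Angptl4 also without normal replicate 1, 2, 3 or 4. The lists were made with earlier results of these data known, the rise of Tnc among them. The counts and medians of this list are therefore no independent evidence of direction.

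**Figure D4:**
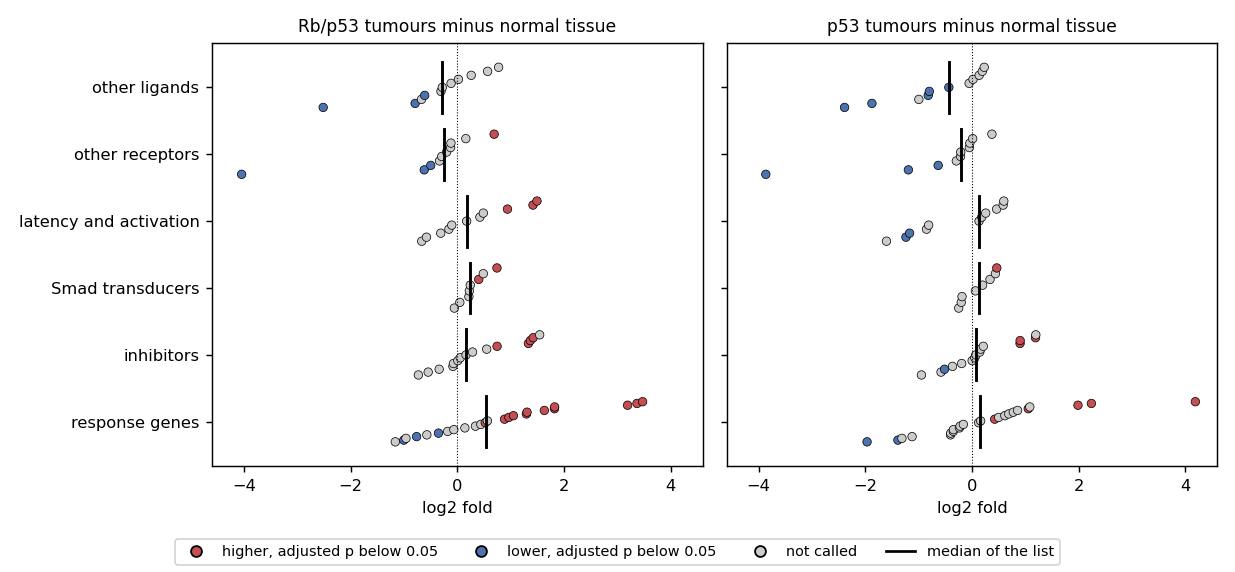
Log2 fold (horizontal axis) of the 79 other pathway genes by list, in Rb/p53 tumours (left) and p53 tumours (right) against normal tissue; red and blue points passed an adjusted p of 0.05, grey points did not, and black lines are list medians. Response genes hold 12 red points on the left and 5 on the right.

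The genes whose levels followed each of the 9 most closely were sought over the 11 tumours without p53 replicate 2, as a description: with few samples and many genes, high values arise readily, and the tumours share their genotype groups. Tgfb1 was most like Ppp1r18 (r = 0.94), Il1rl2 and Ms4a6d, and Inhba most like Ikbip (0.92), Tgoln1 and Ptgs2, the inducible cyclooxygenase gene (0.86). Tgfb2 was closest to Smarca1 (0.94), Tgfb3 to Ffar4 (0.93), Tgfbr1 to H2-Oa (0.94) and Tgfbr2 to Nckap5l (0.92). Tgfbr3 was closest to Cavin3 (0.93), Gas1 (0.93) and Vasn (0.93), Smad7 to Tulp4 (0.90) and Tgfbi to Nr2c2 (0.91). With all 12 tumours the r of Inhba with Tgoln1 was -0.12, while those of Tgfbr3 with its 3 genes were 0.94 to 0.96.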

How the data were processed

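The authors deposited log2 values of 35556 probe sets for 17 arrays. Per the submitters' processing notes they were made by RMA (background correction, normalisation between arrays, probe summary) with Partek 5.6, and no genome build was given. The values were complete. Probe sets were named from the platform annotation; 21789 carried 1 symbol, and the probe set with the highest mean was kept for each of 19938 genes. Each of the 9 genes has 1 probe set.

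Groups were compared in R 4.3.3 with limma 3.58.1 (lmFit, eBayes, two-sided), tested on simulated data, with Benjamini-Hochberg adjustment over all genes and a threshold of 0.05. Tumours were compared with normal tissue on 17 arrays as 3 groups, tumour genotypes on the 12 tumour arrays, Cre delivery on these as 3 groups, and hosts on the 7 MMTV-Cre arrays. Folds are log2 differences of group means ± SE. Correlations over tumours used exact permutation tests over all 362880 orders. Pathway genes past the threshold are named up to 5 a list and comparison by size; for each of the 9 genes the 3 closest genes were listed. Of the genes listed for the pathway 79 were measured.

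The members, lists and tests were chosen with earlier results of these data known. Alternatives were another eBayes setting, array weights, a filter at the 25th percentile, renormalisation, the mean of probe sets, other arrays in the fit, p53 replicate 3 moved, and each array left out; leaving out p53 replicate 2 where it is not compared, or together with moving replicate 3, was chosen after seeing the data. A lone sample was assumed to vary as the other groups do.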

Additional observations from a re-analysis of the deposited data

Results flagged for a closer look

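Of 27 groups of samples checked for a lone extreme value among the 9 genes, 2 held one; chance marks about 1 group in 20. Tgfb3 read 12.19 in MMTV-Cre Rb/p53 replicate 3, a transplant, while the other 8 Rb/p53 tumours lay between 10.32 and 11.25. Tgfbi read 12.12 in normal replicate 1, above the 11.50 to 11.67 of the other normal samples and within the range of the Rb/p53 tumours.

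For Tgfbr3 the difference from normal tissue itself differed between the genotypes when all 17 arrays entered the fit (1.54 log2 units, limma adjusted p = 0.0314); on the 12 tumour arrays the same difference had an adjusted p of 0.118, and alternatives ranged from 0.0314 to 0.823.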

How the results depend on the processing

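The 9 genes gave 882 fold values under the alternatives, of which 804 kept direction and side of the threshold and 41 changed sign; none of the 41 was called. No paired analysis was possible because replicate numbers follow accession order and only name samples. Another scaling moved the median fold of all genes by less than 0.1.

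With the 2 non-transplanted Rb/p53 tumours alone, 2005 genes and 2 of the 9 were called against normal tissue. With p53 replicate 2 out and replicate 3 moved to Rb/p53, replicate 1 was the only p53 tumour left. Its log2 folds against normal tissue ran from -1.39 for Tgfb2 to 3.82 for Inhba. Between genotypes the count of called genes was 1 as reported, 3 with array weights, 2 with a low filter, quantile normalisation or cyclic loess, 356 (and 1 of the 9) with all 17 arrays, 2044 with p53 replicate 3 moved, 12 with replicate 2 out as well, and 0 with only the tumours that are not transplants. For Ad-Cre against MMTV-Cre it was 1, 3 with cyclic loess and 2 with p53 replicate 2 out and replicate 3 moved. With single arrays left out, genes called ranged from 1 to 1358 between genotypes (1358 without p53 replicate 3, 19 without p53 replicate 1), from 1 to 30 for Ad-Cre (30 without Ad-Cre replicate 1, 8 without replicate 2) and from 4 to 158 for transplants (158 without MMTV-Cre replicate 1, 10 without replicate 2, 9 without replicate 4, 5 with all). The causes were not tested.

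The folds that changed sign were not called, and some were sizeable. With array weights Tgfbr2 was 0.079 in Rb/p53 tumours against normal tissue, and between genotypes Tgfbr2 was 0.014, Smad7 -0.50 and Tgfbi 0.16. With p53 replicate 3 moved, Tgfbr2 was 0.0088 in Rb/p53 and -0.056 in p53 tumours and 0.064 between genotypes, and Tgfb1 was -0.037 for Ad-Cre. With p53 replicate 2 out as well, Tgfbr2 was 0.0088 in Rb/p53 tumours, Inhba -0.25, Smad7 -0.69 and Tgfbi 0.10 between genotypes, and Tgfb1 -0.037 for Ad-Cre. Quantile normalisation put Inhba at 0.0022 between hosts. With single arrays left out, Tgfbr2 ran from -0.080 to 0.077 in Rb/p53 and -0.056 to 0.083 in p53 tumours. Between genotypes Tgfbr2 ran from -0.093 to 0.064, Smad7 from -0.43 to 0.66 and Tgfbi from -0.26 to 0.21. For Ad-Cre, Tgfb1 ran from -0.42 to 0.51, Tgfbr1 from -0.041 to 0.81, Tgfbr2 from -0.0049 to 0.20 and Smad7 from -0.084 to 0.52. Between hosts Tgfb2 ran from -0.995 to 0.35, Inhba from -0.59 to 0.51 and Tgfbr2 from -0.60 to 0.66.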
